A study of Mus musculus with 6 samples.

Results

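Heat shock chaperones are described here in the livers of mice on a high-fat diet with and without allantoin. The 10 genes Hspa1a, Hspa1b, Hspa8, Hsph1, Dnaja1, Dnajb1, Hsp90aa1, Hsp90ab1, Hspb1 and Hspd1 were chosen by their GENCODE M21 symbol. No measured value set the choice, but earlier results of these data were known when it was made. All 10 were found among the 54532 Ensembl genes of the count table, and all 10 passed the filter on low counts that left 12795 genes. Liver RNA was sequenced from 6 libraries of male wild-type C57BL/6J mice, 3 of the HFD group (replicates 1 to 3) and 3 of the HFD+Allantoin-H group (replicates 4 to 6). Per the study's methods, mice entered at 8 weeks of age and were kept on the high-fat diet over 2 periods of 4 weeks each, and in the second of these the HFD+Allantoin-H group also drank allantoin, the oxidation product of uric acid. The labels name 0.06 and 0.3 mg/mL without giving a dose for each library, and the study's methods assign the sequenced group to 0.3 mg/mL. Chow-fed livers were not analysed here, so both groups carry the effect of the diet. The labels list the libraries as separate samples and do not say which mouse each came from, so the p-values measure the spread between these samples.

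As background, heat shock chaperones bind unfolded proteins and keep them from aggregating. Hsp70 proteins hold and release their clients in an ATP-driven cycle that J-domain proteins start and exchange factors such as Hsp110 reset, while Hsp90 takes over later steps of folding of kinases and steroid receptors. When proteins unfold, heat shock factor 1 is freed from chaperones, forms trimers and activates the inducible chaperone genes through heat shock elements, repeats of the unit GAA in alternating orientation. Of the 10 genes, Hspd1 encodes Hsp60, the chaperonin of the mitochondrial matrix, and its product is therefore not cytosolic. The other 9 are known mainly as cytosolic or nuclear proteins.

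The libraries held 11326372 to 14601457 counts. Mitochondrial transcripts made up between 17.9% and 36.5% of an HFD library and between 6.92% and 11.4% of an HFD+Allantoin-H library. Levels are therefore given in CPM, counts scaled to a common library size, after TMM normalization, which adjusts for a few abundant genes. HFD replicate 3 stood apart for the chaperones. The summed CPM of the 10 genes was 2737, 3421 and 8271 in HFD replicates 1, 2 and 3, and 3310, 4301 and 3504 in HFD+Allantoin-H replicates 4, 5 and 6. HFD replicate 3 was the highest library for 8 of the 10 genes, against 16.0% of all tested genes, and HFD replicate 1 was the lowest for 7 of the 10, against 26.9% of all tested genes. Results for the 10 genes are therefore given with and without HFD replicate 3, and some of the results for other genes are as well.

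Promoter sequence (RefSeq, GRCm38.p6, 250 bases before and 50 after each start) was given for 7 of the 10 genes, and a pair of units facing each other, GAANNTTC or TTCNNGAA, was searched for in it. Each of these 2 motifs is its own reverse complement, so that 1 search covers both strands, and both can overlap in a longer element. At least 1 pair was found in 6 of the 7 genes, against 17% of all 27025 genes with a promoter entry. The genes are Hspa1a, Hspa1b, Hsph1, Dnaja1, Hspb1 and Hspd1. Dnajb1 held no pair in its windows. An element of 3 alternating units in a row was present in Hspd1 and Hsph1, 2 of the 7, against 0.662% of all genes. The members were picked as known heat shock chaperones, some driven by heat shock factor 1. Both contrasts therefore follow in part from that choice and test nothing. A gene counted when any of its promoter entries held a match, and the number of entries differs between genes. Dnaja1 and Hspd1 also had entries without a pair, and their matches lie at starts inside the annotated gene. Of the 6 genes with a pair, 5 were highest in the same library, HFD replicate 3. Dnajb1, without a pair, was highest there as well, and so were Hspa8 and Hsp90aa1, which had no promoter entry. The stretches around the pairs are shown with the pair in capitals, 5′ to 3′ on the strand of the gene.
Hspa1a (chr17:34972227-34972286, minus strand): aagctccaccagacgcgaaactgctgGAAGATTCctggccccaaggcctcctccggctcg
Hspa1b (chr17:34959309-34959368, minus strand): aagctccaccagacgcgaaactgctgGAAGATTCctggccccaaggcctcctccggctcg
Hspb1 (chr5:135887786-135887845, plus strand): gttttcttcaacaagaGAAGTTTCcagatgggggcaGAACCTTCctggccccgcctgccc
Dnaja1 (chr4:40722333-40722362, plus strand): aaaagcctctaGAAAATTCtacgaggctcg
Hsph1 (chr5:149636351-149636380, minus strand): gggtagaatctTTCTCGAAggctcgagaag
Hspd1 (chr1:55088053-55088082, minus strand): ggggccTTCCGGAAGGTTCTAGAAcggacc
The stretches of Hspa1a, Hspa1b and Hspb1 overlap no annotated exon, whereas those of Dnaja1, Hsph1 and Hspd1 overlap annotated exons of the same gene, and that of Dnaja1 also of the lincRNA Gm6297 on the opposite strand, and are shown at 30 bases. The Hspa1a and Hspa1b stretches are identical, with the pair at position -104 from either start, and the 250 bases before their starts differ at 3 bases. In Hspd1 the capitals cover 3 overlapping pairs. In Hsph1 the element of 3 units lies after the start and is not shown. A match is a description of these letters and shows no binding in these livers.

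The genes known for strong heat induction were Hspa1a and Hspa1b, which encode the same inducible Hsp70, Dnajb1, its J-domain partner Hsp40, and Hspb1, a small heat shock protein (Hsp25). Hspa1b (chr17:34956436-34959238, GRCm38) measured 5.90, 9.48 and 297 CPM in HFD replicates 1 to 3 and 12.2, 53.0 and 15.4 CPM in HFD+Allantoin-H replicates 4 to 6. Its near copy Hspa1a (chr17:34969190-34972156) measured 0.328, 1.48 and 32.1 CPM in HFD and 0.513, 3.67 and 1.96 CPM in HFD+Allantoin-H. In both genes HFD replicate 3 lay far above the other 5 libraries, and the groups overlapped.

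Dnajb1 (chr8:83608193-83612653) measured 22.1, 28.8 and 955 CPM in HFD and 19.8, 35.7 and 72.2 CPM in HFD+Allantoin-H. Hspb1 (chr5:135887919-135889563) measured 32.1, 22.7 and 176 CPM in HFD and 24.0, 35.8 and 33.5 CPM in HFD+Allantoin-H. In both of these genes the groups overlapped as well, and the other 2 HFD libraries lay within or close to the range of the allantoin libraries. Relative to the mean of HFD replicates 1 and 2, HFD replicate 3 was 38.6-fold higher for Hspa1b, 37.5-fold for Dnajb1, 35.5-fold for Hspa1a and 6.44-fold for Hspb1.

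**Figure D1:**
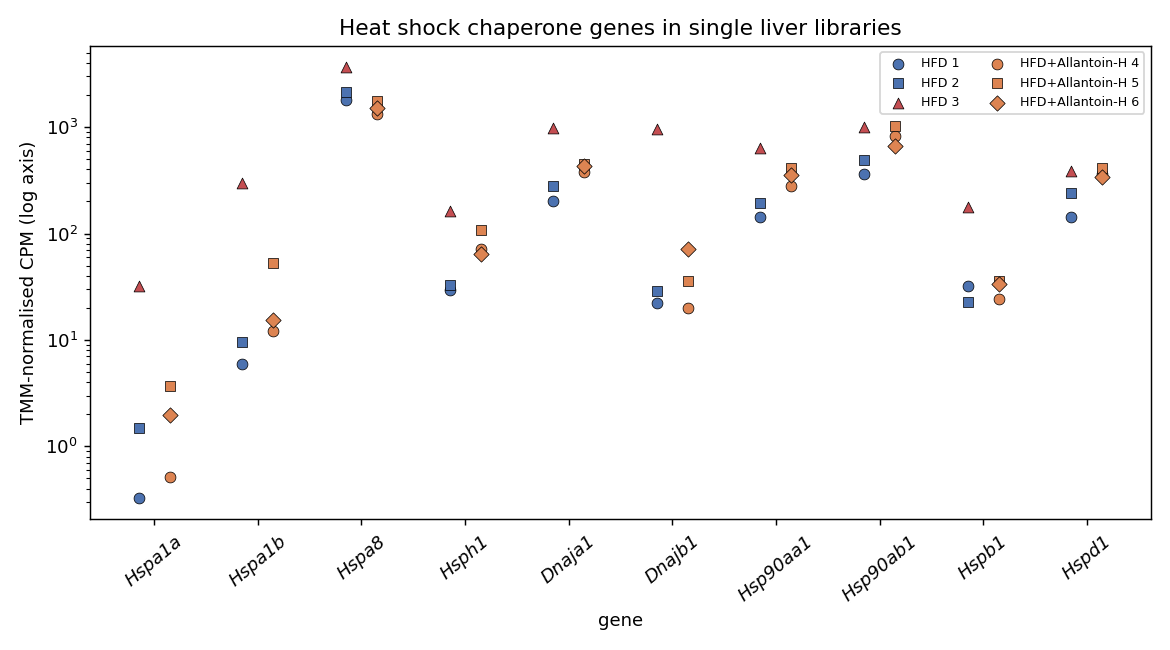
TMM-normalised CPM of the 10 chaperone genes (x axis) on a log axis (y axis), with 1 point per library, HFD libraries left and HFD+Allantoin-H libraries right of each gene. HFD 3 (red triangles) is the highest point for 8 of the 10 genes, and Dnajb1 shows the widest gap, from 955 CPM in HFD 3 to 72.2 CPM in the next library.

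No gene of this group differed between the groups in edgeR's quasi-likelihood test. The log2 fold change of HFD+Allantoin-H over HFD was -2.46 ± 1.26 (SE, n = 3 per group) for Hspa1a, with an adjusted p of 0.184 in edgeR's test over all genes. It was -1.95 ± 1.26 for Hspa1b (adjusted p = 0.283 by edgeR), -2.98 ± 1.28 for Dnajb1 (adjusted p = 0.119 by edgeR) and -1.31 ± 0.66 for Hspb1 (adjusted p = 0.176 by edgeR). These negative values rest on HFD replicate 3. Without it the log2 fold changes were 1.16 ± 0.86 for Hspa1a, 1.80 ± 0.60 for Hspa1b, 0.75 ± 0.45 for Dnajb1 and 0.19 ± 0.23 for Hspb1, all of the opposite sign and none past the threshold (edgeR adjusted p = 0.334, 0.0513, 0.239 and 0.570).

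Hspa1a and Hspa1b share 2201 aligned transcript bases at 99.23% identity, so the counting of reads that fit both could shift counts from one to the other. Their counts were therefore summed as well. The sum was 6.22, 10.96 and 329 CPM in HFD and 12.7, 56.7 and 17.3 CPM in HFD+Allantoin-H. Its log2 fold change was -1.998 ± 1.26 with an edgeR adjusted p of 0.274, and 1.75 ± 0.60 with an edgeR adjusted p of 0.0567 without HFD replicate 3. The sum thus followed Hspa1b, which held most of the counts.

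Hspa8 (chr9:40800984-40810087) encodes Hsc70, the constitutive Hsp70 of every cell. It measured 1800, 2124 and 3632 CPM in HFD and 1331, 1763 and 1521 CPM in HFD+Allantoin-H. Every HFD library lay above every HFD+Allantoin-H library, which made Hspa8 the only one of the 10 genes whose groups did not overlap, 1 gene lower, against 21.9% of all tested genes lower and 22.4% higher without overlap. Its log2 fold change was -0.71 ± 0.28 with a 95% interval from -1.33 to -0.09, and it missed the threshold with an edgeR adjusted p of 0.0890. Without HFD replicate 3 it was -0.35 ± 0.21 (edgeR adjusted p = 0.245). DESeq2 called Hspa8 lower with an adjusted p of 0.0405. The snoRNA genes Snord14c, Snord14d and Snord14e overlap its exons on the same strand, and its near-identical pseudogene copies held at most 68 counts in any library.

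In Hsph1, Dnaja1, both Hsp90 genes and Hspd1, as in Hspa1b, HFD replicates 1 and 2 lay below all 3 allantoin libraries. Hsph1 (chr5:149614287-149636376), which encodes the exchange factor Hsp105 of the Hsp110 family, measured 29.1, 33.1 and 164 CPM in HFD and 71.99, 107 and 63.5 CPM in HFD+Allantoin-H. Dnaja1 (chr4:40722150-40737149), a J-domain protein of Hsc70, measured 202, 279 and 985 CPM in HFD and 380, 452 and 432 CPM in HFD+Allantoin-H. In both genes the allantoin libraries lay between the pair of low HFD libraries and HFD replicate 3. Dnaja1 shares 608 exon bases with Smu1 on the opposite strand, and its near-identical pseudogene Gm15542 held 32 to 303 counts, so part of its count could belong elsewhere.

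Hsp90aa1 (chr12:110690605-110702728), the stress-responsive cytosolic Hsp90, measured 143, 195 and 642 CPM in HFD and 281, 415 and 358 CPM in HFD+Allantoin-H. Hsp90ab1 (chr17:45567775-45573271), the constitutive cytosolic Hsp90, measured 360, 486 and 999 CPM in HFD and 825, 1028 and 666 CPM in HFD+Allantoin-H. Hsp90ab1 was thus highest in HFD+Allantoin-H replicate 5, close to HFD replicate 3, whereas Hsp90aa1 was highest in HFD replicate 3. The mitochondrial Hspd1 (chr1:55077835-55088243) measured 142, 241 and 388 CPM in HFD and 365, 408 and 340 CPM in HFD+Allantoin-H. It too was highest in HFD+Allantoin-H replicate 5 and lowest in HFD replicate 1.

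With all 6 libraries these 5 genes did not pass the threshold. The log2 fold changes were 0.10 ± 0.59 for Hsph1, -0.21 ± 0.50 for Dnaja1, 0.10 ± 0.49 for Hsp90aa1, 0.45 ± 0.35 for Hsp90ab1 and 0.53 ± 0.31 for Hspd1, with edgeR adjusted p-values of 0.920, 0.789, 0.898, 0.380 and 0.245. The 95% interval of Hsp90aa1 ran from -0.998 to 1.21 and so took in changes of either sign. Without HFD replicate 3 all 5 were called higher in HFD+Allantoin-H, by 1.38 ± 0.25 for Hsph1, 0.81 ± 0.20 for Dnaja1, 1.06 ± 0.23 for Hsp90aa1, 0.99 ± 0.24 for Hsp90ab1 and 0.96 ± 0.24 for Hspd1 on the log2 scale (edgeR adjusted p = 0.00514, 0.0186, 0.0106, 0.0168 and 0.0186).

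**Figure D2:**
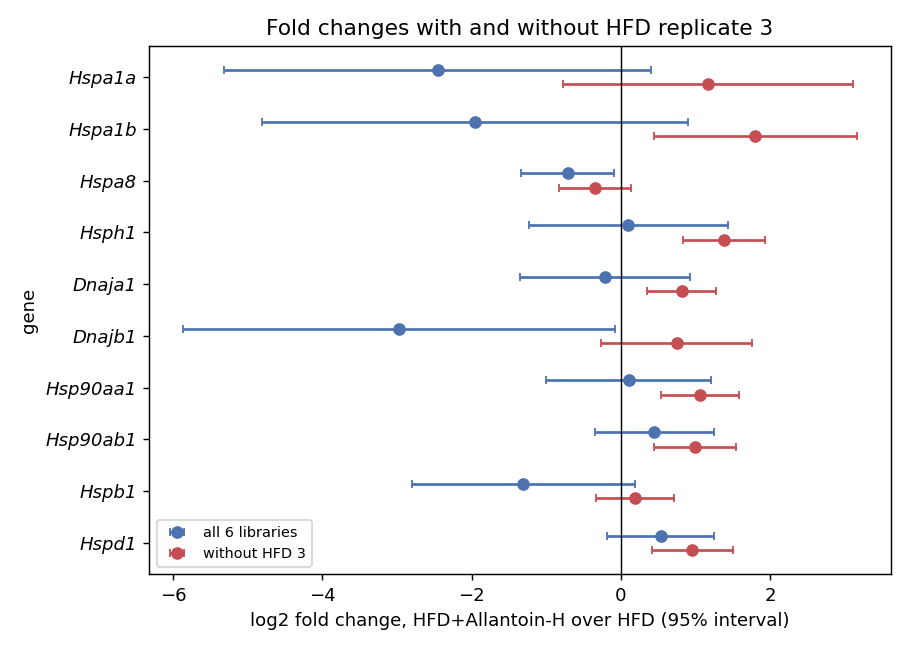
Log2 fold change of HFD+Allantoin-H over HFD (x axis) with its 95% interval for each of the 10 genes (y axis), from edgeR with all 6 libraries (blue) and without HFD replicate 3 (red). With all libraries 6 of 10 points lie below 0 and none was called, and without HFD replicate 3 Hspa8 is the only gene below 0 and 5 genes were called higher.

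Across the 10 genes, 0 were called higher and 0 lower in HFD+Allantoin-H by edgeR at an adjusted p under 0.05, whereas 24.3% of all tested genes were called, 11.3% higher and 13% lower. Without adjustment 2 of the 10 had a p under 0.05, Hspa8 and Dnajb1. DESeq2 called 1 gene lower, Hspa8, and gave no p for Hspa1b and Dnajb1, and limma-voom called 0 genes. The median log2 fold change was -0.46 over the 10 genes and -0.03 over all tested genes. The spread within the HFD group was wide for these genes, with a median SD of log2 CPM of 1.30 over the 10 against 0.35 over all tested genes. Within HFD+Allantoin-H the median SD was 0.31 over the 10 and 0.20 over all tested genes.

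Without HFD replicate 3, 5 of the 10 genes were called higher and 0 lower, and the shares of all 13226 genes then tested were 13.4% higher and 15.2% lower. HFD replicates 1 and 2 both lay below every allantoin library for 6 of the 10 genes, against 29.1% of all tested genes, and the genes are the 5 just named and Hspa1b. HFD replicate 3 lay above every allantoin library for 8 of the 10 genes, against 38.2% of all tested genes. The library left out was singled out for its high values of these genes, so its removal raises their fold changes by construction and narrows the HFD spread. It was the highest library for 16.0% of all tested genes, so the shares of all genes without it are not a like background. The calls without it describe 2 HFD libraries against 3.

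The ratio of HFD replicate 3 to the mean of HFD replicates 1 and 2 was graded among the 10 genes. Below the 4 strongly heat-induced genes it was 5.27 for Hsph1, 4.10 for Dnaja1, 3.80 for Hsp90aa1, 2.36 for Hsp90ab1, 2.02 for Hspd1 and 1.85 for Hspa8. The constitutive Hspa8 and Hsp90ab1 and the mitochondrial Hspd1 thus had the 3 lowest ratios. A ratio over 2 was found for 9 of the 10 genes and for 5.08% of all tested genes, a ratio over 5 for 5 of the 10 and 0.844%, and a ratio over 10 for 3 of the 10 and 0.336%. Within HFD+Allantoin-H, replicate 5 was the highest of the 3 libraries for 9 of the 10 genes, and replicate 6 was for Dnajb1.

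Levels were compared between genes in CPM per kilobase of transcript, with the longest annotated transcript of each gene as its length. The order of the genes depends on this choice. In HFD+Allantoin-H, Hspa8 had the highest mean level at 487 ± 69 (SD, n = 3), followed by Hsp90ab1 at 333 ± 72, Hspd1 at 153 ± 14, Hsp90aa1 at 107 ± 21, Dnaja1 at 75.0 ± 6.6 and Hspb1 at 33.5 ± 6.7, and none of these neighbours overlapped in their single libraries. Hsph1 at 17.0 ± 4.9, Dnajb1 at 14.2 ± 9.0 and Hspa1b at 9.58 ± 8.10 overlapped with their neighbours, and Hspa1a was lowest at 0.690 ± 0.532. In HFD the order was Hspa8 at 798 ± 310, Hsp90ab1 at 244 ± 134, Dnajb1 at 112 ± 179, Hspd1 at 106 ± 51, Hsp90aa1 at 99.6 ± 83.7, Dnaja1 at 86.9 ± 76.8, Hspb1 at 82.9 ± 92.6, Hspa1b at 37.2 ± 59.6, Hsph1 at 15.8 ± 16.1 and Hspa1a at 3.81 ± 6.07. There, every pair of neighbours below Hspa8 overlapped.

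The 5 genes with at least 10 CPM whose profile over the 6 libraries was nearest to the mean profile of the 10 chaperones were Slc25a30, Hhex, Zfand2a, Bag3 and Zfp36l1. Nearness was measured as the root mean square difference of centred log2 CPM, which was 0.194, 0.214, 0.329, 0.364 and 0.367, while the chaperones themselves lay 0.329 to 1.08 from their own mean. Bag3, an exchange factor of Hsp70, measured 19.7, 13.7 and 78.7 CPM in HFD and 17.7, 31.6 and 20.1 CPM in HFD+Allantoin-H. Zfand2a, also known as Airap, a zinc finger protein of the arsenite response, measured 3.82, 6.42 and 36.7 CPM in HFD and 12.0, 12.9 and 12.6 CPM in HFD+Allantoin-H. None of the 5 was called by edgeR, with adjusted p-values from 0.377 to 0.824.

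**Figure D3:**
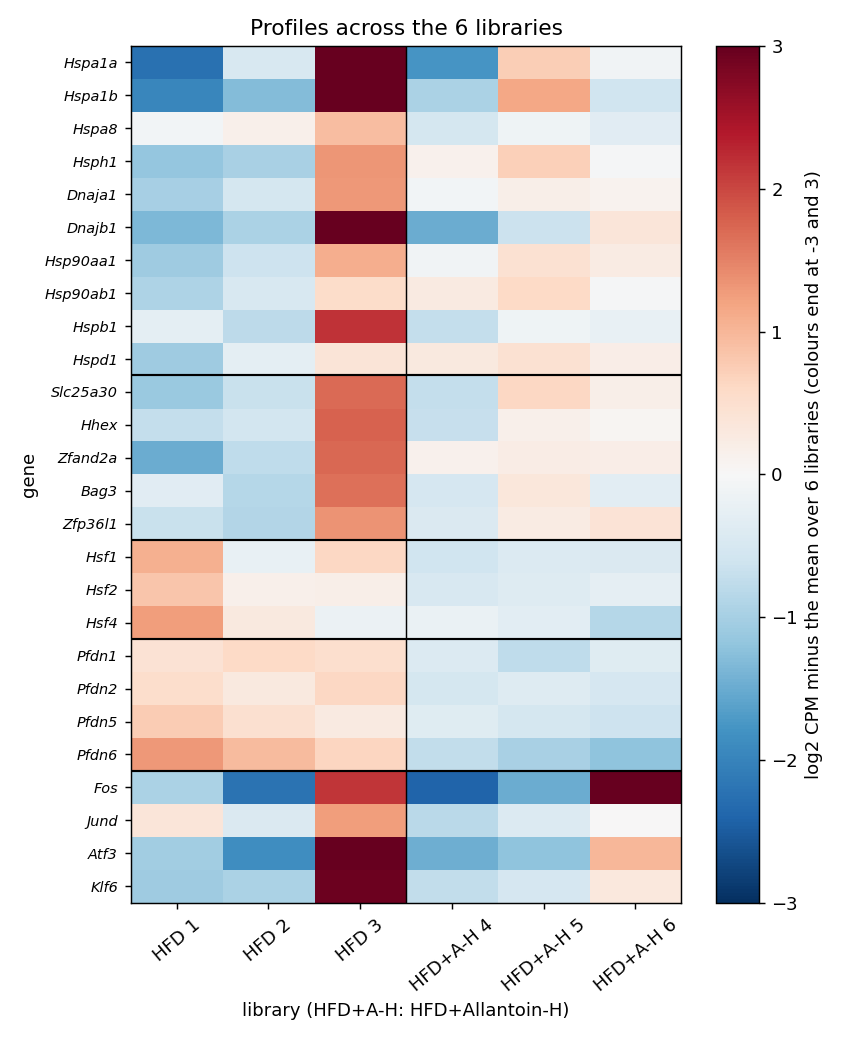
Log2 CPM minus the mean over the 6 libraries (colour) for the 10 chaperones, the 5 nearest profiles, the 3 heat shock factors, 4 prefoldin subunits and 4 immediate early genes (rows) in each library (columns). All 10 chaperones lie above their mean in HFD 3 and none in HFD 1, whereas the heat shock factors are highest in HFD 1 and Fos is highest in HFD+Allantoin-H 6.

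The regulators of these genes did not share their profile. Hsf1, the heat-activated factor, measured 27.8, 11.2 and 20.1 CPM in HFD and 8.58, 9.88 and 9.65 CPM in HFD+Allantoin-H. Hsf2, which pairs with it, measured 44.0, 27.2 and 27.8 CPM in HFD and 17.5, 18.8 and 20.2 CPM in HFD+Allantoin-H. Hsf4, known from the lens, measured 13.0, 6.62 and 4.68 CPM in HFD and 4.62, 4.26 and 2.90 CPM in HFD+Allantoin-H. All 3 were highest in HFD replicate 1, and no library of one group overlapped with the other. Of all tested genes 21.9% were lower in HFD+Allantoin-H without overlap. Hsf1 and Hsf2 were called lower in HFD+Allantoin-H (log2 fold change -1.07 ± 0.30 and -0.80 ± 0.22, edgeR adjusted p = 0.0334 and 0.0275), and Hsf4 missed the threshold at -1.04 ± 0.40 (edgeR adjusted p = 0.0894). With HFD replicate 3 left out all 3 were called lower, Hsf4 at -1.31 ± 0.36 (edgeR adjusted p = 0.0241), against 15.2% of all genes then tested. The calls of Hsf1 and Hsf2 were lost when library size alone set the scale, at -0.63 and -0.36 (edgeR adjusted p = 0.112 and 0.177), and that of Hsf1 with limma-voom at -0.97 (limma adjusted p = 0.0522). Without allantoin replicate 4, 5 or 6 both calls were lost, with Hsf1 at -1.003, -1.10 and -1.09 (edgeR adjusted p = 0.0953 to 0.114) and Hsf2 at -0.75, -0.80 and -0.86 (edgeR adjusted p = 0.0743 to 0.108). Without HFD replicate 1 Hsf1 was at -0.75 (edgeR adjusted p = 0.0864). Heat shock factor 1 is controlled at the protein level, which was not measured here.

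Among the other chaperone lists, 106 genes were tested, including the stress genes below, and 5 were called higher and 8 lower, 13 in all. Of all tested genes 11.3% were called higher and 13% lower, and the counts per list stand beside these shares. In the other Hsp70 and Hsp110 genes 1 of 7 was called higher and 0 lower. This gene was Hspa14, a ribosome-associated Hsp70, at 0.74 ± 0.21 (log2, edgeR adjusted p = 0.0362), and Hspa13, a microsomal member, was at 0.83 ± 0.27 (edgeR adjusted p = 0.0521). Hspa4l and Hspa13 were called higher as well when HFD replicate 3 was left out. In the other J-domain genes 0 of 11 were called higher and 1 lower, Dnajc7 at -0.66 ± 0.16 (edgeR adjusted p = 0.0183), which carries tetratricopeptide repeats that bind Hsp70 and Hsp90. Dnajb6, which holds back aggregating proteins, was at 0.54 ± 0.24 with all libraries (edgeR adjusted p = 0.136) and at 0.87 ± 0.19 without HFD replicate 3 (edgeR adjusted p = 0.0107).

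Exchange factors and regulators of Hsp70 held 0 called genes of 9, in either direction. In the Hsp90 co-chaperones 1 of 15 was called higher and 0 lower. It was Fkbp5, a glucocorticoid-induced peptidyl-prolyl isomerase, which measured 20.3, 20.1 and 16.3 CPM in HFD and 34.5, 34.5 and 27.8 CPM in HFD+Allantoin-H (log2 fold change 0.77 ± 0.17, edgeR adjusted p = 0.0148). Fkbp5 was not highest in HFD replicate 3, unlike 7 of the 15 genes of its list and 16.0% of all tested genes. Cdc37, which delivers kinases to Hsp90, was at 0.51 ± 0.21 (edgeR adjusted p = 0.108) and Unc45a, a myosin chaperone, at -0.72 ± 0.24 (edgeR adjusted p = 0.0560). Chordc1, an Hsp90-binding protein, was called higher when HFD replicate 3 was left out, at 0.76 ± 0.21 (edgeR adjusted p = 0.0250), and was at 0.24 with all libraries (edgeR adjusted p = 0.622). The other small heat shock proteins held 0 called genes of 4 tested among 7 listed, with a median log2 fold change of -0.46, and Hspb8 measured 204, 163 and 386 CPM in HFD and 154, 182 and 160 CPM in HFD+Allantoin-H.

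Among the other mitochondrial chaperones 1 of 9 was called higher and 0 lower. It was Hspa9, the mitochondrial Hsp70 mortalin, which measured 103, 194 and 260 CPM in HFD and 353, 380 and 369 CPM in HFD+Allantoin-H (log2 fold change 0.99 ± 0.29, edgeR adjusted p = 0.0401). Hspa9 did not overlap between the groups, in contrast to Hspd1, with which it works in the matrix. Of all tested genes 22.4% were higher in HFD+Allantoin-H without overlap. Hspe1, the Hsp10 lid of the Hsp60 chamber, was at -0.27 with all 6 libraries (edgeR adjusted p = 0.454) and at 0.07 without HFD replicate 3 (edgeR adjusted p = 0.793), and it overlaps Hspd1 by 112 exon bases on the opposite strand.

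The TRiC chaperonin folds actin and tubulin, and prefoldin hands it these clients. Of the 8 TRiC subunits 1 was called higher, Cct5 at 0.91 ± 0.26 (log2, edgeR adjusted p = 0.0363), and 0 lower. Of the 6 prefoldin subunits 5 were called lower and 0 higher, with a median log2 fold change of -1.02. Pfdn6 measured 72.8, 56.6 and 45.5 CPM in HFD and 17.6, 14.9 and 12.6 CPM in HFD+Allantoin-H (log2 fold change -1.95 ± 0.22, edgeR adjusted p = 0.00232). Pfdn5 measured 118, 95.9 and 83.9 CPM in HFD and 53.4, 47.7 and 44.8 CPM in HFD+Allantoin-H (log2 fold change -1.03 ± 0.18, edgeR adjusted p = 0.00600). Every HFD library lay above every allantoin library in both genes, as in 21.9% of all tested genes. Both kept their call in all 16 alternative fits. The remaining subunit, Vbp1, was at 1.15 (edgeR adjusted p = 0.0539) and was called higher without HFD replicate 3.

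Of the 12 chaperones of the endoplasmic reticulum 1 was called higher, Dnajc3 at 0.72 ± 0.20 (log2, edgeR adjusted p = 0.0318), a J-domain protein that also inhibits the kinase PERK, and 0 lower. HFD replicate 3 was the highest library for 9 of the 12, against 16.0% of all tested genes. Hspa5, the Hsp70 BiP, measured 539, 660 and 2090 CPM in HFD and 887, 1130 and 1010 CPM in HFD+Allantoin-H, which is the order of libraries seen for Dnaja1 and Hsp90aa1. With HFD replicate 3 left out, 4 of the 12 were called higher, among them Hspa5 and Canx at 0.75 ± 0.21 and 1.11 ± 0.27 (edgeR adjusted p = 0.0253 and 0.0160). Of all genes then tested 13.4% were called higher. Where HFD replicate 3 was the highest library, as for Hspa5, leaving it out raises the fold change by construction.

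Several calls in these lists depended on the settings. Of the 12 called genes named by the rule for the lists, 2, Pfdn5 and Pfdn6, were called in all 16 alternative fits, and each of the others lost its call in at least 1. Removing each library's length and GC trend ended the higher calls of Hspa14, Fkbp5, Hspa9 and Dnajc3, whose log2 fold changes fell to 0.37, 0.28, 0.51 and 0.10 (edgeR adjusted p = 0.102 to 0.625). Scaling by library size alone ended the lower calls of Dnajc7, Pfdn1 and Pfdn2, at -0.25, -0.60 and -0.54 (edgeR adjusted p = 0.0512 to 0.374).

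Leaving out HFD+Allantoin-H replicate 4, 5 or 6 ended the calls of Hspa14, Dnajc7, Hspa9, Cct5 and Dnajc3 each time, with edgeR adjusted p-values of 0.0540 to 0.131, while their log2 fold changes stayed near those with all libraries. Hspa9 was at 1.02, 0.97 and 0.98 in these 3 fits and Cct5 at 0.90, 0.90 and 0.95. Fkbp5 lost its call without replicate 4 or 5, at 0.73 in both fits (edgeR adjusted p = 0.0664 and 0.0699). With HFD replicate 1 left out, Hspa14 and Dnajc3 lost theirs at 0.69 and 0.58 (edgeR adjusted p = 0.0702 and 0.0653). With HFD replicate 2 left out, Hspa14, Hspa9, Cct5 and Dnajc3 lost theirs at 0.66, 1.02, 0.99 and 0.67 (edgeR adjusted p = 0.0568 to 0.0813). These fits hold 1 library fewer, and the lost calls came with little change in fold. Leaving out HFD replicate 3 ended only the call of Pfdn4 among the 13, at -1.08 (edgeR adjusted p = 0.0661).

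**Figure D4:**
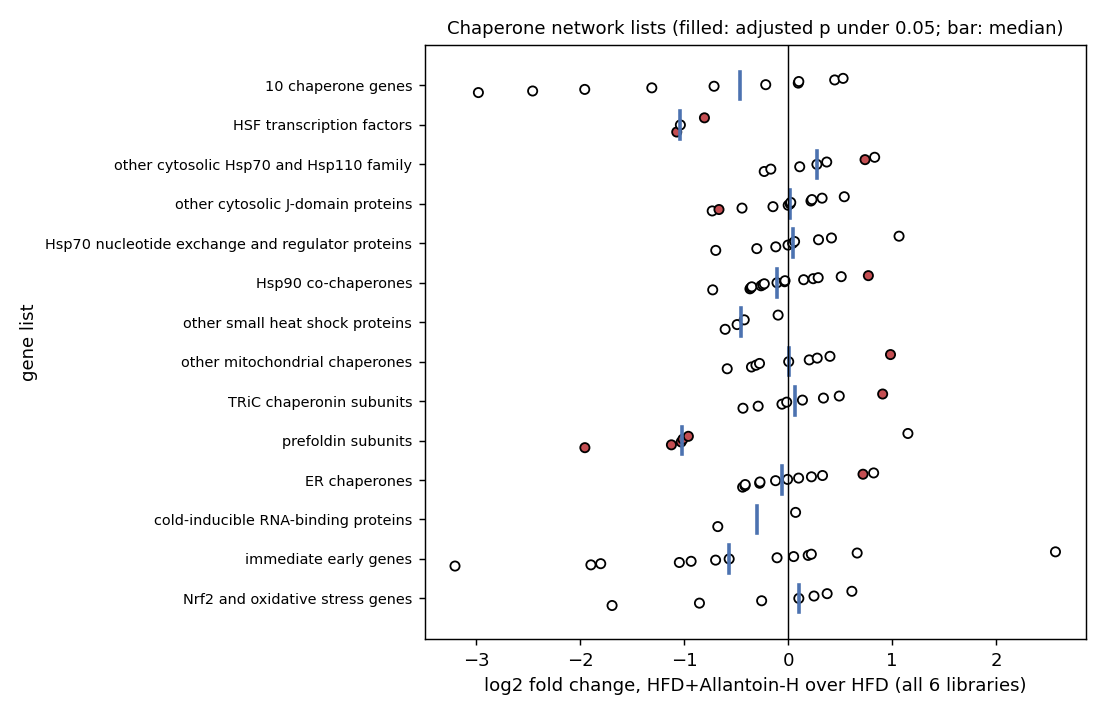
Log2 fold change of HFD+Allantoin-H over HFD (x axis, all 6 libraries) for each tested gene of the 10 chaperones and of 13 other lists (y axis), with filled points for an edgeR adjusted p under 0.05 and a bar at the list's median. None of the 10 chaperones is filled, whereas 5 of 6 prefoldin subunits and 2 of 3 heat shock factors are filled at negative values.

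Genes of other stress responses were also high in HFD replicate 3. All 13 tested immediate early genes, which respond within minutes to many stimuli, were over 2 times the mean of HFD replicates 1 and 2 there. The share of all tested genes was 5.08%. HFD replicate 3 was the highest library for 7 of the 13 and HFD+Allantoin-H replicate 6 for the other 6, against 16.0% and 14.7% of all tested genes. Egr1 measured 11.8, 15.8 and 486 CPM in HFD and 7.62, 14.97 and 325 CPM in HFD+Allantoin-H. Fos measured 3.06, 1.19 and 27.2 CPM in HFD and 1.03, 2.07 and 187 CPM in HFD+Allantoin-H. Egr1 and Fos were thus high in 1 library of each group, whereas Jund was at 28.3 CPM in HFD+Allantoin-H replicate 6, below the 36.7 CPM of HFD replicate 1. HFD+Allantoin-H replicate 6 was the highest library for none of the 10 chaperones. For Dnajb1 it was the second highest, at 72.2 CPM against 19.8 and 35.7 CPM in HFD+Allantoin-H replicates 4 and 5. Atf3 measured 2.40, 1.28 and 126 CPM in HFD and 1.76, 2.13 and 10.3 CPM in HFD+Allantoin-H, and Klf6 was at -1.80 ± 0.95 (log2, edgeR adjusted p = 0.194). Without HFD replicate 3 both turned positive, at 1.37 and 0.79 (edgeR adjusted p = 0.225 and 0.123). No immediate early gene was called by edgeR.

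In the Nrf2 and oxidative stress list 0 of 7 genes were called, and Srxn1, which repairs oxidised peroxiredoxins, measured 30.3, 35.5 and 371 CPM in HFD and 35.7, 43.7 and 56.0 CPM in HFD+Allantoin-H. Its log2 fold change was -1.69 with all libraries and 0.46 without HFD replicate 3 (edgeR adjusted p = 0.168 and 0.147). Srxn1 was the 1 gene of these 7 over 2 times the mean of HFD replicates 1 and 2 in HFD replicate 3. Gclc came close to that ratio, at 380, 245 and 624 CPM in HFD replicates 1 to 3. HFD replicate 3 was the highest library for 3 of the 7, against 16.0% of all tested genes. The cold-inducible Cirbp measured 13.2, 15.2 and 8.44 CPM in HFD and 11.1, 5.74 and 6.28 CPM in HFD+Allantoin-H, and Rbm3 measured 20.9, 19.5 and 26.9 CPM in HFD and 22.9, 22.1 and 25.7 CPM in HFD+Allantoin-H. Neither was called (edgeR adjusted p = 0.154 and 0.801). Among the HFD libraries, Cirbp was lowest and Rbm3 highest in HFD replicate 3. There, 0 of the 2 genes passed 2 times the mean of the other HFD libraries. The part of the immediate early response in the chaperone levels of HFD replicate 3 was not tested.

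Cell type markers moved between the groups too, where 11.3% of all tested genes were called higher and 13% lower. Of the hepatocyte markers 1 of 10 was called higher and 5 lower, and 8 of the 10 had a log2 fold change below 0. Their summed levels were 104804 to 108374 CPM in HFD and 78824 to 108292 CPM in HFD+Allantoin-H, far above the sums of every other marker list. Alb held most of each sum, at 55939, 60485 and 62025 CPM in HFD and 54402, 59198 and 82145 CPM in HFD+Allantoin-H. Of the stellate cell markers 5 of 8 were called higher, with sums of 192 to 315 against 420 to 483 CPM, and of the macrophage markers 3 of 8, with sums of 110 to 262 against 305 to 343 CPM. Endothelial markers held 1 of 8 called higher and 1 lower, and adipose, erythroid and neutrophil markers held 0 called genes of 3, 5 and 2 tested. The adipose gene Adipoq was at 51.4 CPM in HFD replicate 2 and at most at 0.0733 CPM elsewhere. The erythroid genes stood apart in HFD replicate 3, where Hba-a1 was at 156 CPM against 672 and 549 CPM in HFD replicates 1 and 2, and Hbb-bs at 111 against 491 and 453 CPM. In HFD+Allantoin-H, Hba-a1 was at 369, 339 and 426 CPM and Hbb-bs at 383, 386 and 487 CPM. With HFD replicate 3 left out, 3 of 5 erythroid markers (Hba-a1, Hba-a2 and Hbb-bt) were called lower in HFD+Allantoin-H. Of all genes then tested 15.2% were called lower. HFD replicate 3 was the lowest library for these globin genes, so leaving it out lowers their fold changes by construction. The erythroid marker Alas2 went the other way, with a log2 fold change of 0.67 with all libraries (edgeR adjusted p = 0.0536). Without HFD replicate 3 Alas2 was at 0.46 (edgeR adjusted p = 0.0641). The globin genes are near copies of each other, so reads could be shared among them, and the part of blood in the chaperone levels of HFD replicate 3 was not tested. No stellate, macrophage, endothelial or erythroid marker had its highest level in HFD replicate 3, while 1 of 10 hepatocyte, 1 of 3 adipose and 1 of 2 neutrophil markers did. The share of all tested genes was 16.0%. In bulk liver, fewer cells of a type and less RNA per cell cannot be told apart, and the part of cell composition in the chaperone levels was not tested.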

How the data were processed

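Per the labels and methods, the authors extracted liver RNA with an RNeasy kit, made libraries with a SMARTer mRNA kit and deposited raw read counts per gene from filtered reads, not normalized. The submitters' processing notes name GRCm38 (mm10). The aligner and counting tool are not given in the sources used here, nor is the strand setting. Of 54961 entries, 429 without an Ensembl identifier (0.197% to 0.306% of counts) were left out. Counts were analysed in R 4.3.3 with edgeR 4.0.16 (TMM, filterByExpr, quasi-likelihood test, Benjamini-Hochberg adjustment over 12795 genes, threshold 0.05). The SE was derived from the F statistic. Log2 CPM used a prior count of 2. Annotation was GENCODE M21 and near copies were searched with BLAST 2.17.0 (at least 95% identity over 200 bases). A procedure check ran on simulated data. The alternatives tried were scaling by RLE, by library size only and by the upper quartile, DESeq2 1.42.0, limma-voom (limma 3.58.1), 3 other count filters, leaving out each library or the mitochondrial chromosome, removing length and GC trends, and a threshold of 0.01. For the pathway lists the same alternatives were added after seeing the data. The members and lists were chosen with earlier results of these data known. The text names all 10 members, the heat shock factors, both cold-inducible genes, up to 4 genes of smallest p per other list and 5 nearest profiles leaving out predicted genes. Other genes named, such as Hspb8, Hspe1, Hspa5, Egr1, Vbp1, Chordc1, Pfdn4, Adipoq and the globins, were chosen after their values were seen. Counts per library of 11326372 or more leave counting error small beside the spread between libraries, except for genes with few counts. Among these is Hspa1a, with 3 and 15 counts in HFD replicates 1 and 2 and 7 in HFD+Allantoin-H replicate 4. Fos and Atf3 had as few as 12 and 13 counts in a library. Permuting 3 against 3 libraries exactly gives a two-sided p of at least 0.1, so no such test was used. Lymphocyte markers are not reported here.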

Additional observations from a re-analysis of the deposited data

How the results depend on the processing

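No paired analysis was possible because the 2 groups share no replicate number. Of 172 recomputed values of the 10 genes and the Hspa1a and Hspa1b sum, 143 kept their direction and side of the threshold, 0 lost a call, 13 gained one with the sign kept and 16 changed sign, of which 1, Dnaja1 without HFD replicate 3, also passed the threshold. The count of members called higher was 0 in every fit except the one without HFD replicate 3, which gave 5 (range 0 to 5 over the fits that left out 1 library). The count called lower was 0 in the main result, 1 with DESeq2, 1 with length and GC trends removed, 5 with no filter, and 0 to 1 when 1 library was left out, the 1 being Hspa8 without HFD replicate 1. With no filter the prior degrees of freedom were infinite, the median SE of the members was 0.220 against 0.546, and the Hspa1a plus Hspa1b sum was -1.97 (adjusted p = 1.57e-16), so that those calls came with a spread shared by all genes.

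Library-size scaling moved the median log2 fold change of all genes to 0.38 and removing length and GC trends moved it to -0.44, and signs under them are relative to these shifts. Leaving out HFD replicate 3 turned the log2 fold change of Hspa1a (range over the fits without 1 library -3.18 to 1.16), Hspa1b (-2.91 to 1.80), their sum (-2.94 to 1.75), Dnaja1 (-0.59 to 0.81), Dnajb1 (-3.59 to 0.75), Hspb1 (-1.74 to 0.19), Atf3 (-4.47 to 1.37), Klf6 (-2.31 to 0.79) and Srxn1 (-2.18 to 0.46), the highest value being the one without it. Hsph1 and Hsp90aa1 turned to -0.40 and -0.35 with length and GC trends removed, to -0.29 and -0.26 without HFD replicate 1, to -0.26 and -0.16 without HFD replicate 2, and to -0.15 and -0.027 without HFD+Allantoin-H replicate 5, with highs of 1.38 and 1.06 without HFD replicate 3. Dnaja1 turned to 0.13 under library size only and to 0.14 with limma-voom. Among uncalled list genes, removing length and GC trends gave -0.45 for Hspa4, -0.17 for Hspa4l, -0.13 for Dnajc8, -0.36 for Bag4, -0.048 for Cdc37, -0.11 for Cct6a and -0.46 for Rbm3. Library size only gave 0.11 for Bag5, 0.040 for Ppid, 0.34 for Cryab, 0.11 for Clpb and 0.17 for Gclm. Leaving out 1 library gave 0.015, 0.090 and 0.00046 for Cryab (HFD replicates 1 and 2 and HFD+Allantoin-H replicate 6), -0.039 for Hspa4 and -0.019 for Rbm3 (HFD replicate 2), with highs of 0.36 and 0.23, and -2.75 to 4.92 for Fos, negative without HFD+Allantoin-H replicate 6. The fits that left out a library show which library a sign depends on, and the cause of these sign changes was not tested. Depth limits Hspa1a most, with 3 to 384 counts per library.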
